A study of Mus musculus with 21 samples.

Results

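Oxidative phosphorylation needs subunits from both genomes. The mitochondrial chromosome encodes 13 of them, and the nuclear chromosomes encode all others. The genes here were taken by symbol: names beginning with Nduf, Uqcr, Cox4 to Cox8 or Atp5, the succinate dehydrogenase genes Sdha to Sdhd, and the mt-Nd, mt-Co, mt-Atp and mt-Cytb genes. Of 111 matching genes, 99 had a mean log2 value of at least the log2 of 10 over the 21 libraries, and these are the members: 86 nuclear and 13 mitochondrial, out of 12980 genes tested and 26852 in the table. The nuclear members hold 36 subunits of complex I (7 core and 29 accessory), 4 of complex II, 8 of complex III, 11 of complex IV and 16 of ATP synthase. They also hold 9 assembly or associated factors and 2 paralogs or copies.

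Complexes I, III and IV pump protons across the inner mitochondrial membrane while electrons pass from NADH to oxygen, and ATP synthase uses the gradient. Complex II feeds electrons from succinate and has nuclear subunits only. The mitochondrial genes are transcribed as long precursors from a chromosome present in many copies per cell, apart from the nuclear genes.

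The libraries come from Nestin-GFP NSG mice, 8 to 12 weeks old at transplant and not conditioned, which received the human AML cell lines HL60 or ML1. The leukemic cells release sLP-mCherry, a soluble, lipid-permeable label that neighboring cells take up. Nes low mesenchymal cells were sorted by FACS from bones digested with collagenase and dispase, after hematopoietic cells had been removed with magnetic beads. Total RNA was turned into cDNA with a low-input kit (Nugen Ovation). Mice without transplant gave 3 control libraries (ctrl). At low engraftment, cells with the label (early ch+) and cells of the same marrow without it (early ch-) gave 6 libraries each, and heavy engraftment gave 6 (late), always 3 per line. The treatment field of the ML1 late libraries reads unengrafted, against their titles and time point, and they were kept as late. The text on extraction speaks of CD31+ endothelial cells for all samples, whereas the source field names Nes low cells. The host is immune-deficient, the leukemia comes from human cell lines, and the reporter itself defines the gate. Replicate labels do not say that libraries come from separate animals, so the p-values measure only the spread between libraries. Labeled and unlabeled cells come from the same marrows, which the fit does not take into account because the labels name no pairs. The depth of each library cannot be read from the deposited log2 values. Fewer cells of a type and less RNA per cell cannot be told apart in bulk RNA.

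All levels below are regularized log2 values, and all adjusted p are from limma with 21 libraries in the fit. Genes with adjusted p under 0.1 are called deregulated. Comparisons with ctrl share the same 3 control libraries, and both comparisons that involve ch+ and a further leukemic group share the ch+ libraries.

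Mitochondrial and nuclear members did not move together. The mean over the 13 mitochondrial members was 11.03, 11.04 and 11.27 in the ctrl libraries. It was 11.73, 11.89 and 12.13 (lowest, median, highest of 6) in ch-, 11.63, 11.83 and 12.22 in ch+, with late at 10.52, 10.80 and 11.23. Every early library was above every ctrl library, and the late libraries overlapped ctrl. The mean over the 86 nuclear members was 6.91, 6.97 and 7.06 in ctrl, 6.89, 6.98 and 7.04 in ch-, 6.87, 6.91 and 7.10 in ch+, with late at 6.69, 6.83 and 6.90. Early libraries overlapped ctrl in the nuclear mean, and all 6 late libraries were below the lowest ctrl library, an order that rescaling to a common total reverses on average.

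The difference between both means within a library does not depend on how that library was scaled. It was 3.99, 4.12 and 4.31 in ctrl, 4.74, 4.88 and 5.17 in ch-, 4.76, 4.86 and 5.28 in ch+, with late at 3.70, 3.97 and 4.54. All 12 early libraries had a larger gap than any of the 9 others. The group means ± SD were 4.14 ± 0.16 (n = 3), 4.94 ± 0.17, 4.92 ± 0.20 and 4.01 ± 0.28 (n = 6 each), so the gap was 0.80 larger in ch- and 0.78 larger in ch+ than in ctrl. With HL60 and ML1 apart (n = 3 each) it was 4.96 ± 0.16 and 4.92 ± 0.22 in ch-, 5.03 ± 0.24 and 4.81 ± 0.08 in ch+, and 3.96 ± 0.04 and 4.06 ± 0.44 in late. The 5 mitochondrial genes whose reads are least shared with other genes (mt-Nd1, mt-Nd2, mt-Nd5, mt-Nd6 and mt-Cytb) gave 5.10 ± 0.14, 6.02 ± 0.21, 5.98 ± 0.21 and 5.00 ± 0.27 in ctrl, ch-, ch+ and late. As a share of the summed linear values without ribosomal RNA, the mitochondrial members made up 1.13%, 1.14% and 1.15% in ctrl, 1.92%, 2.60% and 2.78% in ch-, 2.00%, 2.35% and 2.78% in ch+, with late at 1.203%, 1.29% and 2.04%. By this share every leukemic library was above every ctrl library; the summed values behind it were lower in all late libraries than in ctrl.

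**Figure D1:**
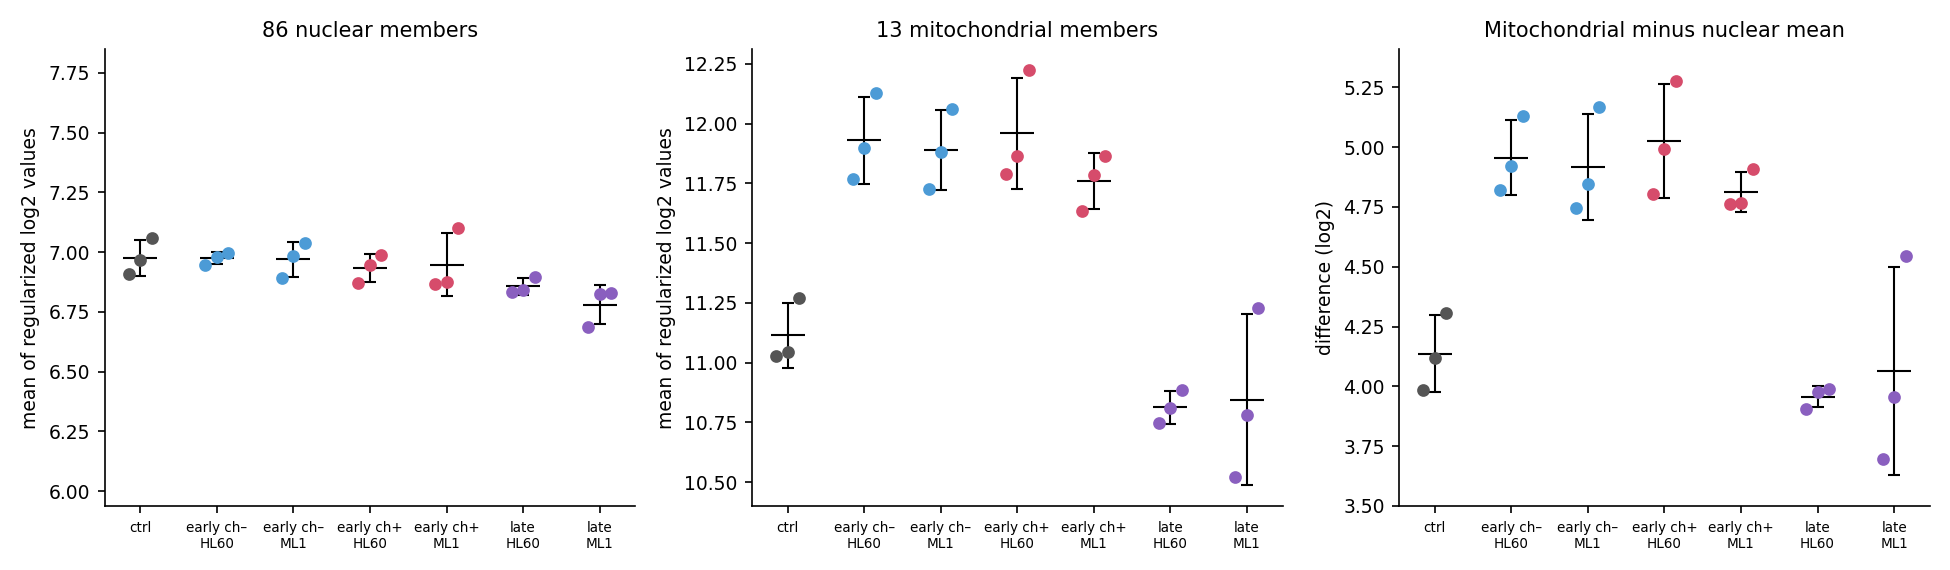
Mean of the nuclear members, mean of the mitochondrial members and their difference in each library, with group mean and SD (n = 3 libraries per group). The lower nuclear and mitochondrial means in late turn to higher ones when libraries are rescaled to a common total; the difference of both means does not change.

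Levels per kilobase are the log2 level minus the log2 of the length of all annotated exons of a gene merged. On this scale mt-Co1 at 14.90 and mt-Cytb at 14.30 were the highest members, and mt-Nd3 at 5.64 was the lowest mitochondrial one. The highest nuclear members were Atp5b at 9.54 and Cox6a1 at 9.51, and Ndufb2 was low at 3.92. Merged exons can be longer than any single transcript, so low nuclear values such as that of Ndufb2 can reflect annotation. They are no ranking of abundance.

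In early ch- against ctrl, the mitochondrial transcripts rose and nuclear members did not pass the threshold. Of 13 mitochondrial members, 10 rose and 0 fell, against 1.13% of all tested genes called higher and 0.786% called lower. Their median log2 fold change was 0.94, beside 0.01 over all tested genes. Among the 86 nuclear members limma called 0 in either direction, with 6 at unadjusted p under 0.05, and their median was −0.02, a sign that turns to 0.13 in 1 of the alternative scalings.

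The mitochondrial transcripts called higher, with reads of identical copies left apart, covered complexes I, III and IV. mt-Nd1, a core subunit of complex I, was 13.15, 13.01 and 13.27 in ctrl and 13.62, 14.03 and 14.20 (lowest, median, highest) in ch-. mt-Co1, the catalytic subunit of complex IV, was 15.03, 14.98 and 15.19 in ctrl and 15.54, 16.15 and 16.38 in ch-. mt-Cytb, the only mitochondrial subunit of complex III, was 13.88, 14.01 and 14.21 in ctrl and 14.66, 15.05 and 15.27 in ch-. For all of these genes, every ch- library was above every ctrl library. The changes were 0.86 for mt-Nd1 (SE 0.15, adjusted p 0.00101), 1.01 for mt-Co1 (SE 0.16, adjusted p 0.000496) and 0.97 for mt-Cytb (SE 0.17, adjusted p 0.00114).

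mt-Co2, which carries the copper site that receives electrons from cytochrome c, had the largest change when reads of its identical copy are left apart. It was 11.16, 11.04 and 11.30 in ctrl and 12.38, 12.50 and 12.69 in ch-, without overlap, and rose by 1.36 (SE 0.14, adjusted p 2.76e-07). Summed with the copy, a choice made after seeing the data, its change was 0.89, smaller than the 1.01 of mt-Co1 and the 1.02 of mt-Nd5. mt-Co3 rose by 1.08 (SE 0.18, adjusted p 0.000624) from 11.09, 11.20 and 11.47 in ctrl to 11.71, 12.44 and 12.74. The membrane-arm subunits of complex I rose as well: mt-Nd2 by 0.97 (SE 0.16, adjusted p 0.000491), mt-Nd4 by 0.94 (SE 0.16, adjusted p 0.00121), mt-Nd4l by 0.86 (SE 0.22, adjusted p 0.0506) and mt-Nd5 by 1.02 (SE 0.14, adjusted p 6.81e-05). mt-Nd6, the only member read from the other strand of the mitochondrial chromosome, was 9.28, 9.19 and 9.26 in ctrl and 9.75, 9.99 and 10.31 in ch-, and rose by 0.76 (SE 0.15, adjusted p 0.00582). All these increases kept their direction in both rescalings.

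The remaining 3 mitochondrial members did not pass the threshold in ch-. The ATP synthase subunit gene mt-Atp6 was 11.40, 10.83 and 11.69 in ctrl and 11.68, 12.06 and 12.30 in ch-, overlapping at 1 ctrl library (0.72, SE 0.23, adjusted p 0.147). Summed with its identical copy, its change was 0.98. mt-Atp8, also of ATP synthase, was 8.32, 8.12 and 8.45 in ctrl and 8.55, 8.86 and 9.21 in ch-, without overlap (0.58, SE 0.20, adjusted p 0.189). mt-Nd3 of complex I was 4.95, 4.68 and 4.68 in ctrl and 2.98, 3.76 and 5.46 in ch-, with overlap (−0.78, SE 0.58, adjusted p 0.645; the sum with its copy was at 0.43).

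In early ch+ against ctrl, the same 10 mitochondrial members rose and 0 fell, and 3 of the 86 nuclear members fell and 0 rose. Over all tested genes 3.41% were called higher and 2.75% lower. The median over the mitochondrial members was 0.83 and over the nuclear members −0.04, beside 0.01 over all tested genes; the nuclear median has the opposite sign in both rescalings (0.03 and 0.11).

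The mitochondrial values in ch+ were close to those in ch-. mt-Nd1 was 13.84, 13.93 and 14.21, mt-Co1 15.87, 15.95 and 16.15, and mt-Cytb 14.74, 14.86 and 15.31, all above every ctrl library. Their changes were 0.83 (SE 0.15, adjusted p 0.000555), 0.93 (SE 0.16, adjusted p 0.000554) and 0.90 (SE 0.17, adjusted p 0.00102). mt-Co2 was 12.04, 12.43 and 12.86, again without overlap, and rose by 1.27 (SE 0.14, adjusted p 6.64e-07), or 0.82 when summed with its copy. mt-Co3 rose by 0.74 (SE 0.18, adjusted p 0.0129), mt-Nd2 by 0.87 (SE 0.16, adjusted p 0.000678), mt-Nd4 by 0.90 (SE 0.16, adjusted p 0.000723) and mt-Nd4l by 0.81 (SE 0.22, adjusted p 0.0329). mt-Nd5 rose by 0.95 (SE 0.14, adjusted p 7.49e-05) and mt-Nd6 by 0.66 (SE 0.15, adjusted p 0.00807). The call of mt-Nd4l depended on single libraries: without ctrl 373 it was 0.55 in ch+ and 0.60 in ch-, and was not called in either.

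Outside these 10, mt-Atp6 was 11.20, 12.02 and 12.25 in ch+ (0.62, SE 0.23, adjusted p 0.148) and mt-Atp8 8.36, 8.80 and 9.32 (0.56, SE 0.20, adjusted p 0.125), both overlapping ctrl. Summed with its identical copy, mt-Atp6 was at 0.80. mt-Nd3 was 3.01, 4.64 and 5.79 in ch+, spread around the ctrl values (−0.36, adjusted p 0.813; the sum with its copy was at 0.22).

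**Figure D2:**
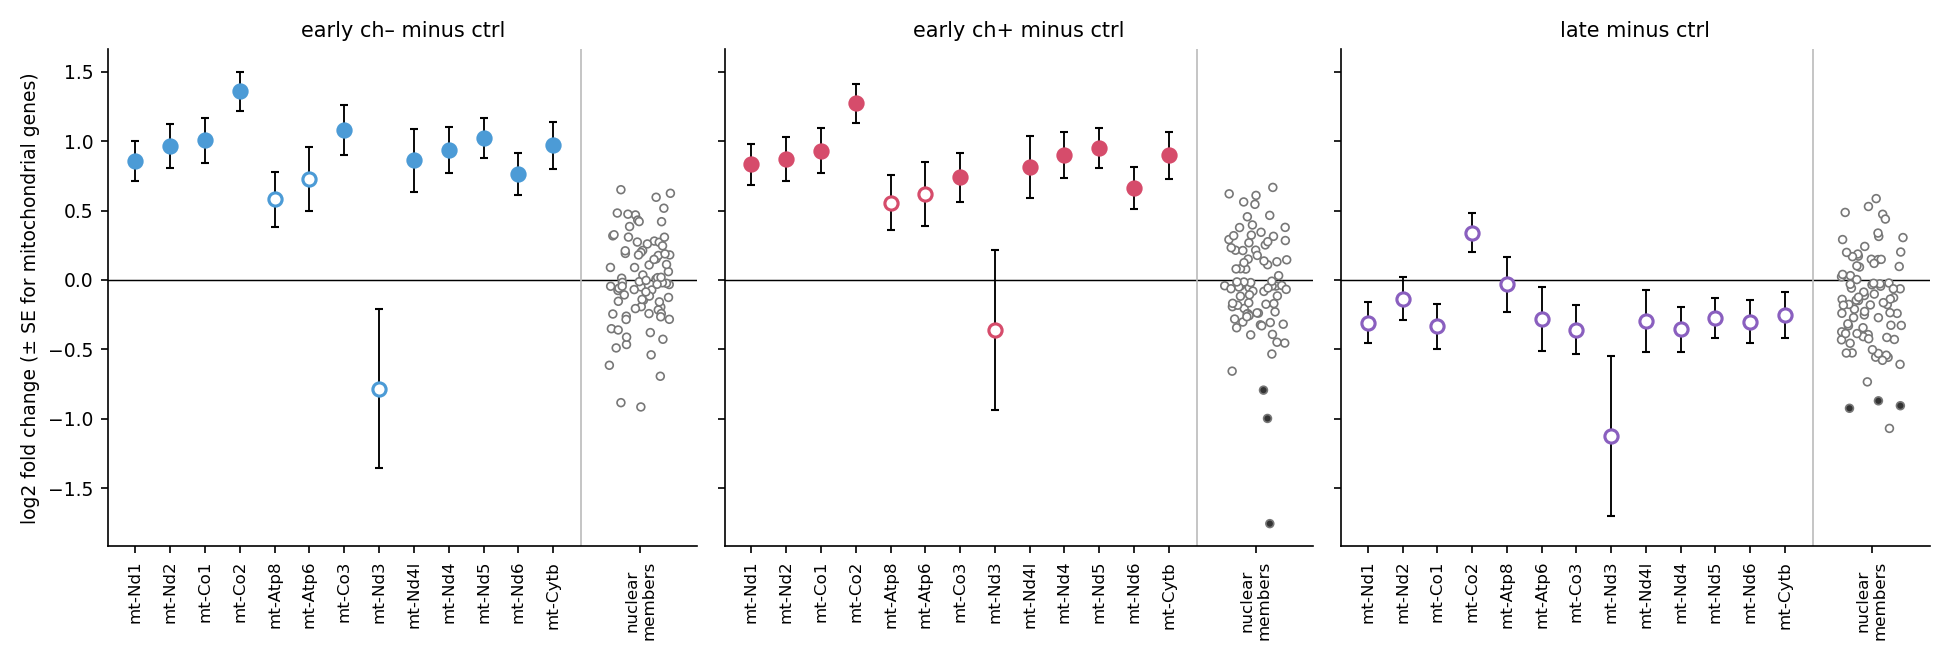
Log2 fold change against ctrl of each mitochondrial member (± SE, in chromosome order) and of the 86 nuclear members; filled points have adjusted p under 0.1 (limma). Rescaling libraries to a common total keeps the early mitochondrial increases and turns most late values from lower to higher.

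The nuclear members that fell in ch+ were Ndufa4l2, Ndufb2 and Sdhc. Ndufa4l2 encodes a paralog of the complex IV subunit NDUFA4. It was 7.13, 6.09 and 7.25 in ctrl, 3.71, 4.94 and 6.37 in ch+, and 6.11, 6.48 and 6.84 in ch-. The ch+ libraries were low, with 2 of 6 above the lowest ctrl library. Ndufa4l2 fell by 1.76 against ctrl (SE 0.45, adjusted p 0.0219), a call lost without ctrl 373 (−1.60, adjusted p 0.111) or ctrl 375 (−1.54, adjusted p 0.124). Its common partner Ndufa4 was 7.26, 6.93 and 7.87 in ctrl and 7.06, 7.30 and 8.20 in ch+, fully overlapping (0.13, SE 0.27, adjusted p 0.863).

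Ndufb2, an accessory subunit of complex I, was 7.09, 6.96 and 7.61 in ctrl, 5.74, 6.18 and 6.85 in ch+, and 5.73, 6.30 and 6.86 in ch-. All early libraries were below all ctrl libraries. It fell by 1.00 in ch+ (SE 0.30, adjusted p 0.06), whereas the −0.88 in ch- (SE 0.30, adjusted p 0.189) did not pass. Sdhc, a membrane anchor of complex II, was 8.46, 7.92 and 8.71 in ctrl and 6.89, 7.52 and 8.26 in ch+, with overlap, and fell by 0.79 (SE 0.25, adjusted p 0.0675). The decreases of Ndufb2 and Sdhc were not called without ctrl 375 (−0.80 and −0.62).

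The other complex II genes did not follow Sdhc. Against ctrl, the values in ch+ were −0.17 for Sdha, 0.28 for Sdhb and 0.28 for Sdhd, with adjusted p of 0.7, 0.741 and 0.741. In ch- they were −0.09 (Sdha), 0.09 (Sdhb), −0.54 (Sdhc, adjusted p 0.382) and 0.11 (Sdhd). The ctrl libraries of Sdhd were far apart, at 7.89, 5.92 and 8.01.

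By class, the median changes in ch+ were −0.05 for core and −0.08 for accessory subunits of complex I, −0.15 for complex III, 0.08 for complex IV, −0.03 for ATP synthase and −0.01 for assembly or associated factors. In ch- the medians were −0.15, −0.06, −0.08, 0.01, 0.12 and 0.20 in the same order. The complex II median, over 4 genes, was 0.06 in ch+ and 0.00 in ch-. None of these classes had a member that rose. In ch+ the all-gene median itself was 0.16 in 1 of the rescalings, so medians this close to 0 have no sign that holds in every scaling.

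Compared directly, early ch+ and early ch- differed in 1 member, Ndufa4l2. Over all tested genes 3.57% were called higher and 2.67% lower in ch+. Ndufa4l2 was 1.41 lower in ch+ (SE 0.37, adjusted p 0.0205), with 4 of the 6 ch+ libraries below every ch- library, and this call stayed whichever library was left out. It was not called when either line was fitted with ctrl alone. No other nuclear member was called, and 2 of the 86 had unadjusted p under 0.05 in limma. Of 13 mitochondrial members limma called 0, with 1 at unadjusted p under 0.05. The medians were −0.02 for nuclear and −0.07 for mitochondrial members beside −0.02 for all tested genes; rescaling to the library totals turns both signs, to 0.13 for nuclear and 0.0788 for mitochondrial members. The largest mitochondrial difference was for mt-Co3 apart from the poorly measured mt-Nd3: −0.34 (adjusted p 0.237) against 0.42 for mt-Nd3 (adjusted p 0.734).

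In late against ctrl, 3 nuclear members fell, 0 rose, and no mitochondrial member passed. This stands beside 10.2% of all tested genes called higher and 11.4% called lower. The nuclear median was −0.15 with 60 of 86 members below 0, and the mitochondrial median −0.30 with 12 of 13 below 0, beside 0.02 over all tested genes. Among mitochondrial members limma called 0, with 3 at unadjusted p under 0.05. Rescaling to the library totals puts the all-gene median at 0.71 and these medians at 0.55 and 0.40. Under this rescaling more members were called than the 3 here, all of them higher. Only their position below the all-gene median (−0.17 and −0.31) stays, because a rescaling shifts all genes of a library alike. Quantile normalization puts this position at −0.16 and −0.27.

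Uqcr10, a small subunit of complex III, was 7.50, 7.90 and 7.84 in ctrl and 6.49, 6.90 and 7.23 in late. Ndufc1, an accessory subunit of complex I, was 6.66, 6.80 and 6.45 in ctrl and 5.54, 5.72 and 6.02 in late. Ndufb2 was 5.74, 6.32 and 6.66 in late. For these 3 genes every late library was below every ctrl library. Uqcr10 fell by 0.87 (SE 0.25, adjusted p 0.0156), Ndufc1 by 0.91 (SE 0.28, adjusted p 0.0241) and Ndufb2 by 0.93 (SE 0.30, adjusted p 0.0345). Rescaled to the library totals the values kept their sign but were −0.18, −0.21 and −0.23, and none was called. On the deposited scaling, Uqcr10 kept its call whichever library was left out. Ndufb2 lost its call without ctrl 375 (−0.73) and Ndufc1 without ctrl 374 (−0.83).

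The mitochondrial members in late were close to ctrl or slightly lower, with overlap. mt-Nd1 was 12.56, 12.75 and 13.36, mt-Co1 14.45, 14.71 and 15.21, and mt-Cytb 13.46, 13.67 and 14.32 in late. Their changes against ctrl were −0.31, −0.33 (adjusted p 0.183) and −0.25. mt-Nd2 was at −0.13, mt-Nd4 at −0.36, mt-Nd4l at −0.30, mt-Nd5 at −0.28, mt-Nd6 at −0.30, mt-Co3 at −0.36, mt-Atp6 at −0.28 and mt-Atp8 at −0.03. mt-Nd3 at −1.13 had the largest error (SE 0.58, adjusted p 0.205), and its sum with its copy was at −0.28. Only mt-Co2 was above 0: its late libraries were 11.29, 11.45 and 11.84, 1 of them below the highest ctrl library (0.34, SE 0.14, adjusted p 0.101), but the sum with its identical copy was at −0.19.

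Late medians by class were −0.14 for core and −0.15 for accessory subunits of complex I, 0.01 for complex II, −0.30 for complex III, −0.21 for complex IV, −0.08 for ATP synthase and 0.03 for assembly or associated factors. Complex II showed Sdha at −0.12, Sdhb at 0.20, Sdhc at −0.41 (adjusted p 0.293) and Sdhd at 0.15, none called. The common isoforms of complex IV were at −0.27 for Cox4i1, −0.41 for Cox6a1 (adjusted p 0.106), −0.56 for Cox6b1, 0.53 for Cox7a2 and −0.21 for Cox8a, and Ndufa4l2 was at −1.07 (SE 0.45, adjusted p 0.114). In ch+ the same isoforms were at −0.08, −0.24, −0.34, 0.38 and −0.04, and in ch- at −0.07, 0.01, −0.47, 0.62 and −0.26, none called. Their tissue-restricted counterparts did not reach the filter: Cox4i2 had a mean of 2.74, Cox6b2 3.23, Cox6a2 1.73, Cox8b 0.69 and Cox7a1 0.61. Cox6b2 and Cox4i2 were the genes just under the filter, and mt-Nd3 (4.12) and Ndufaf8 (4.46) the members just above it.

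Between late and early ch+, 12 of 13 mitochondrial members were lower in late and 0 higher. Of the 86 nuclear members 7 were lower and 0 higher. Over all tested genes 8.78% were called higher and 10.9% lower. The medians were −1.098 for mitochondrial and −0.12 for nuclear members beside 0.02 for all tested genes. Rescaling to the library totals turns the nuclear median to 0.49, and leaves the mitochondrial one at −0.48. In both rescalings more nuclear members were called higher in late than the 7 called lower here.

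All late libraries were below all ch+ libraries for mt-Nd1, mt-Co1, mt-Co2, mt-Cytb, mt-Nd5 and mt-Nd6. mt-Nd5 was 13.70, 13.81 and 14.11 in ch+ and 12.35, 12.61 and 13.04 in late, 1.23 lower (SE 0.12, adjusted p 5.07e-09). mt-Nd1 was 1.14 lower (SE 0.12, adjusted p 3.2e-08), mt-Co1 1.27 lower (SE 0.13, adjusted p 3.5e-08), mt-Nd4 1.26 lower (SE 0.13, adjusted p 3.8e-08) and mt-Cytb 1.15 lower (SE 0.14, adjusted p 2.68e-07). mt-Co2 was 0.93 lower (adjusted p 4.62e-07), mt-Co3 1.098 (adjusted p 1.47e-06), mt-Nd2 1.01 (adjusted p 7.3e-07), mt-Nd4l 1.11 (adjusted p 3.79e-05) and mt-Nd6 0.96 (adjusted p 9.22e-07). mt-Atp6 was 0.90 lower (SE 0.19, adjusted p 0.000808) and mt-Atp8 0.59 lower (SE 0.16, adjusted p 0.0105), the latter turning to 0.03 higher under rescaling to the library totals. mt-Nd3 did not pass (−0.77, SE 0.47, adjusted p 0.33). The 12 calls stayed whichever library was left out.

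The nuclear members lower in late than in ch+ were Uqcr10, Ndufs8, Ndufb11, Cox7b, Cox7c, Atp5e and Ndufb4c. Uqcr10 was 6.82, 7.44 and 8.07 in ch+, overlapping late, and 0.63 lower in late (SE 0.21, adjusted p 0.0336). Ndufs8, an iron-sulfur core subunit of complex I, was 6.83, 7.17 and 7.96 in ch+ and 5.98, 6.80 and 6.95 in late, with overlap, and 0.61 lower (SE 0.23, adjusted p 0.0815). Ndufb11, an accessory subunit of complex I, was 0.46 lower (SE 0.18, adjusted p 0.0908), and the complex IV subunit genes Cox7b and Cox7c were 0.47 (SE 0.18, adjusted p 0.0838) and 0.41 lower (SE 0.15, adjusted p 0.0595). Atp5e, for the epsilon subunit of ATP synthase, was 6.15, 6.54 and 6.83 in ch+ and 5.79, 6.02 and 6.29 in late, with overlap, and 0.54 lower (SE 0.22, adjusted p 0.0957). Rescaling to the library totals turns Ndufs8 to 0.01, Ndufb11 to 0.15, Cox7b to 0.14, Cox7c to 0.20 and Atp5e to 0.07 higher, and leaves Uqcr10 at −0.02 and Ndufb4c at −0.11. Ndufb4c, a processed copy of the complex I gene Ndufb4, was 0.72 lower (SE 0.22, adjusted p 0.0197), and Ndufb4 itself was at −0.43 without a call. With each of the 21 libraries left out in turn, 2 to 9 nuclear members were called here. The call was lost in 12 of the 21 omissions for Atp5e, 8 for Ndufb11, 7 for Cox7b, 6 for Cox7c, 5 for Ndufs8, 1 for Uqcr10 and 0 for Ndufb4c.

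**Figure D3:**
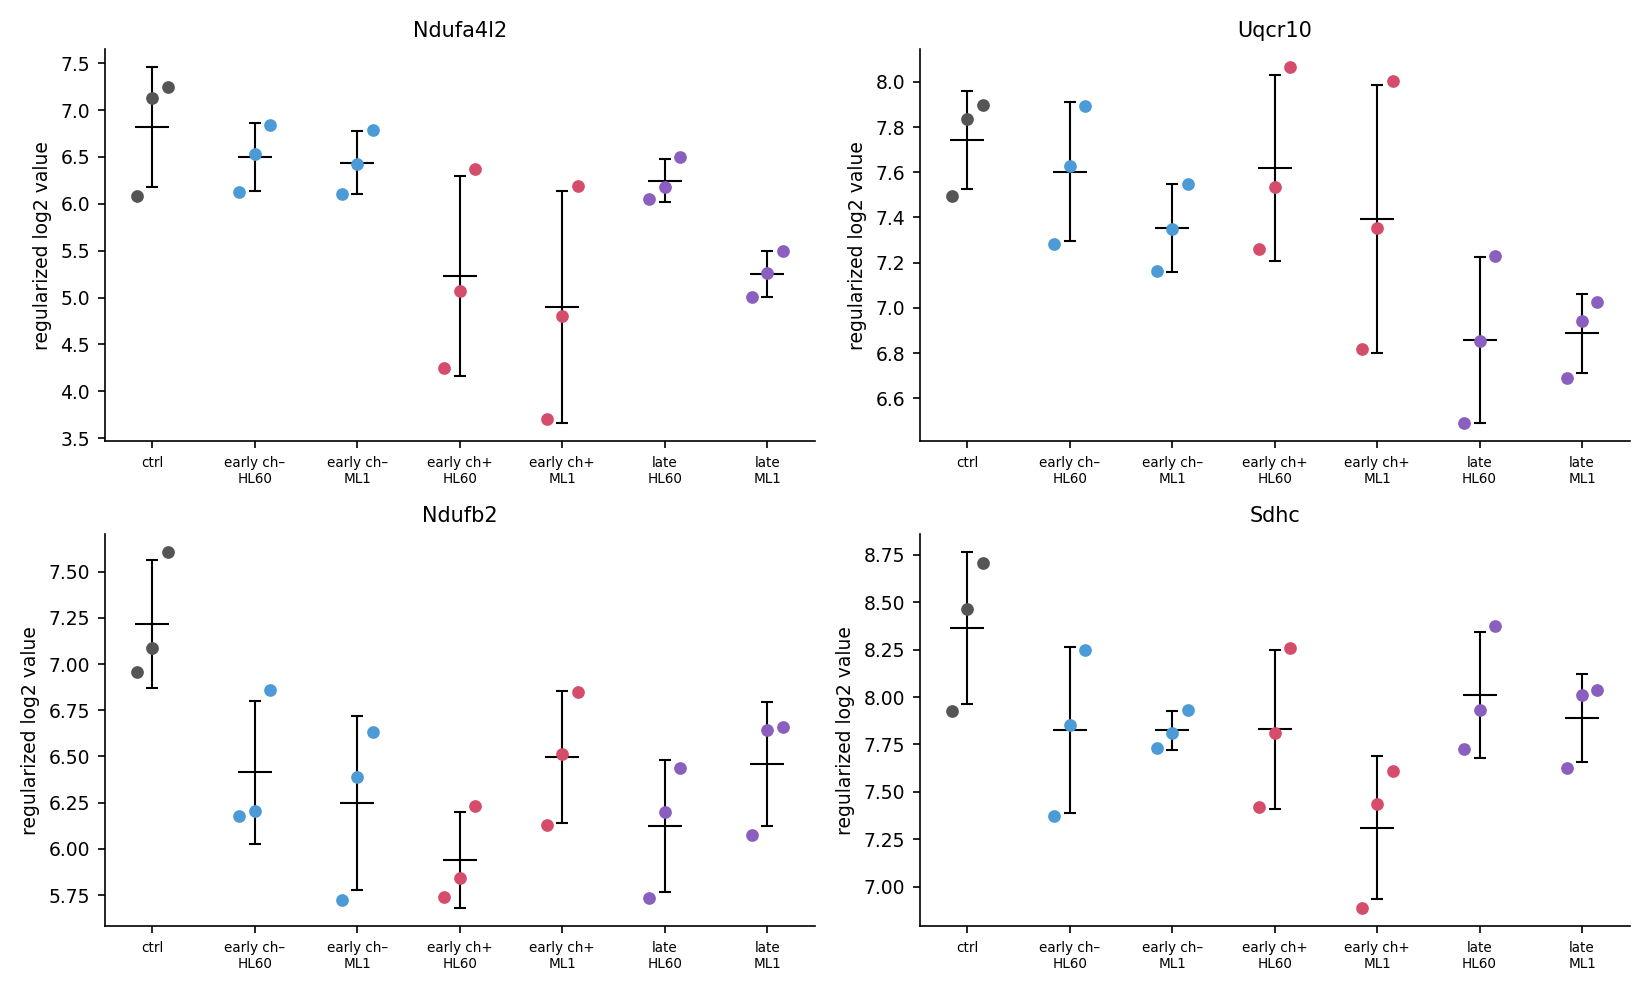
Ndufa4l2, Uqcr10, Ndufb2 and Sdhc in each library, with group mean and SD (n = 3 libraries per group). The decreases called against ctrl keep their sign under rescaling to a common library total. Those called in late become small (−0.18 for Uqcr10 and −0.23 for Ndufb2) and lose their call, and not all of those in ch+ stay called.

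Taken by line, HL60 and ML1 each showed the early rise of mitochondrial transcripts. In ch- HL60 against ctrl (0.894% of tested genes higher, 0.678% lower) 9 mitochondrial members rose, and in ch- ML1 (1.42% and 0.924%) 10 rose. In ch+ HL60 (2.87% and 2.46%) and in ch+ ML1 (3.47% and 3.22%) 10 rose in each. The mitochondrial medians were 0.97, 0.80, 0.93 and 0.72 in this order, and the nuclear medians 0.04, −0.02, −0.07 and 0.01. mt-Co2 rose by 1.46 in ch- HL60, 1.38 in ch+ HL60 and 1.17 in ch+ ML1, or by 1.05, 0.94 and 0.70 when summed with its copy, so its rank among the members depends on how reads of identical sequences are assigned. In ch- ML1 mt-Co3 rose by 1.37, or by 1.07 with its copy. No nuclear member was called in ch- of either line, where limma gave 3 (HL60) and 2 (ML1) at unadjusted p under 0.05. In ch+, Ndufa4l2 fell in both lines, by 1.59 in HL60 (SE 0.51, adjusted p 0.0807) and by 1.92 in ML1 (SE 0.51, adjusted p 0.0224). Ndufb2 fell by 1.28 in ch+ HL60 (SE 0.35, adjusted p 0.0357) and Sdhc by 1.05 in ch+ ML1 (SE 0.28, adjusted p 0.024).

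Late HL60 against ctrl (6.46% of tested genes higher, 7.24% lower) had 2 nuclear members lower, Ndufb2 by 1.09 (SE 0.35, adjusted p 0.0414) and Uqcr10 by 0.89 (SE 0.30, adjusted p 0.0584). mt-Co3 was the only mitochondrial call there and fell by 0.45 (adjusted p 0.09). Late ML1 (9.89% higher, 12.1% lower) had 8 nuclear members lower and 0 higher. The largest decreases were in Ndufa4l2 by 1.57 (SE 0.51, adjusted p 0.0285), Ndufc1 by 0.99 (SE 0.35, adjusted p 0.0463), Uqcrb by 0.90 (SE 0.36, adjusted p 0.0859) and Uqcr10 by 0.86 (SE 0.30, adjusted p 0.0474), followed by Ndufb11 by 0.70, Ndufa13 by 0.69, Cox6a1 by 0.54 and Atp5b by 0.35. Uqcrb, Ndufa13 and Atp5b are named after their values were seen. In late ML1 mt-Nd4 fell by 0.41 (adjusted p 0.062), and mt-Co2 was called higher by 0.41 (adjusted p 0.052), a sign that turns to −0.19 when it is summed with its copy. These late directions depend on scaling: after rescaling to the library totals, 26 members in HL60 and 54 in ML1 were called, all of them higher. They also depend on single libraries: late HL60 had 0 to 4 member calls with 1 library left out, with 0 without ctrl 375, and late ML1 had 4 to 11, with 4 without ctrl 374. Cell type markers differed between the late lines as well. Summed osteoblast genes were at 64539 to 111909 in late ML1 and 381213 to 486460 in late HL60. Summed chondrocyte genes were at 2802 to 4355 and 9739 to 15223. Their part in these calls was not tested.

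None of the differences in members between lines passed when tested. HL60 minus ML1 had 4.1% of all tested genes called in late, 0.0154% in ch+ and 0.0539% in ch-, and limma called 0 members in each. At unadjusted p under 0.05 there were 3 nuclear and 0 mitochondrial members in late, 2 and 2 in ch+, and 5 and 5 in ch-. The mitochondrial medians of HL60 minus ML1 were 0.06 in late, 0.21 in ch+ and 0.19 in ch-, and the nuclear ones 0.09, 0.00 and 0.02. With 3 libraries per line, a difference of this size could be missed.

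Genes for the upkeep and expression of the mitochondrial genome gave few calls. The mitochondrial ribosomal RNAs, the 2 tested genes of a list of 8 with transfer RNAs, rose with the mitochondrial members. mt-Rnr1 was 16.97, 17.14 and 17.35 in ctrl and 17.98, 18.24 and 18.50 in ch-, without overlap, and rose by 1.09 (SE 0.17, adjusted p 0.00023) there and by 0.98 in ch+ (SE 0.17, adjusted p 0.000455). mt-Rnr2 rose by 1.00 (SE 0.21, adjusted p 0.0116) in ch- and 0.79 (SE 0.21, adjusted p 0.0293) in ch+. Both were lower in late than in ch+, by 1.12 (adjusted p 4.42e-07) and 0.90 (adjusted p 0.000319), and limma called 0 of the 2 in late and in ch+ against ch-, with 0 at unadjusted p under 0.05. Of 26 tested genes for mitochondrial DNA upkeep, transcription and RNA processing, Polg2, the accessory subunit of the DNA polymerase, was the only one to pass in the early groups. It was 4.28, 4.68 and 6.06 in ctrl and 5.34, 6.35 and 7.18 in ch+, with overlap, and rose by 1.39 in ch+ (SE 0.42, adjusted p 0.0561) and 1.46 in ch- (SE 0.42, adjusted p 0.0848). In late 1 of the 26 fell, the RNA-binding kinase gene Fastk (−0.65, SE 0.24, adjusted p 0.0588). Against ch+ 2 were lower in late, Mterf4 (−0.77, SE 0.18, adjusted p 0.00214) and Mterf2 (−0.85, SE 0.31, adjusted p 0.0658), and ch+ against ch- gave 0, with 0 at unadjusted p under 0.05. The list medians were −0.11 in late, −0.01 in ch+ and −0.10 in ch-.

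Of 79 tested genes of the mitochondrial ribosome, 3 rose and 2 fell in late, 3 rose in ch+, and limma called 0 in ch- (8 at unadjusted p under 0.05) and 0 in ch+ against ch- (2 unadjusted). Mrps26 rose by 1.06 in late (SE 0.35, adjusted p 0.034) and by 1.06 in ch+ (SE 0.35, adjusted p 0.0823), Mrps35 by 1.16 in ch+ (SE 0.35, adjusted p 0.0571), and Mrpl2 fell by 1.31 in late (SE 0.42, adjusted p 0.0319). Mrps31 was 0.79 higher in late than in ch+ (SE 0.31, adjusted p 0.0896), the only call in that comparison. The list medians were 0.11 in late, 0.09 in ch+ and 0.12 in ch-.

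Among 7 tested regulators of mitochondrial biogenesis, 2 rose and 2 fell in late. The coactivator gene Ppargc1a was 4.99, 5.05 and 5.19 in ctrl and 2.91, 3.04 and 3.68 in late, without overlap, and fell by 1.95 (SE 0.43, adjusted p 0.00157). It was also 1.52 lower in late than in ch+ (SE 0.35, adjusted p 0.00238), the only call of its list there. Nrf1, a transcription factor of nuclear respiratory genes, was 5.97, 6.84 and 7.72 in ctrl and 7.40, 7.53 and 8.12 in late, with overlap, and rose by 0.80 (SE 0.30, adjusted p 0.0699). In the early groups limma called 0 of the 7 against ctrl (2 in ch+ and 3 in ch- at unadjusted p under 0.05). The coactivator gene Pprc1 was 0.76 lower in ch+ than in ch- (SE 0.20, adjusted p 0.0175). The list medians were −0.05, −0.22 and 0.08 in late, ch+ and ch-.

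Upstream of the chain, 17 of 17 genes of the TCA cycle and pyruvate dehydrogenase were tested. Idh3g, a subunit of isocitrate dehydrogenase, was 8.51, 8.80 and 8.88 in ctrl, 7.66, 7.95 and 8.41 in ch-, 7.70, 7.89 and 8.22 in ch+, with late libraries at 7.81, 7.96 and 8.27, below ctrl in all 18 leukemic libraries. It fell by 0.72 (adjusted p 0.063), 0.82 (adjusted p 0.011) and 0.75 (adjusted p 0.00691), each with SE 0.20. In ch+ against ch- limma called 0 genes of the list, with 1 at unadjusted p under 0.05. The list medians were 0.08, 0.05 and −0.06 in late, ch+ and ch-.

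Of 16 import and carrier genes, the adenine nucleotide carrier gene Slc25a5 (−0.51, SE 0.14, adjusted p 0.00901) and the phosphate carrier gene Slc25a3 (−0.40, SE 0.14, adjusted p 0.0502) fell in late. The early groups had 0 calls in limma against ctrl (3 in ch+ and 1 in ch- unadjusted). The outer membrane channel gene Vdac1 was 0.51 higher in ch+ than in ch- (SE 0.15, adjusted p 0.0567), and the chaperone genes Hspd1 and Hspa9 were 0.76 (SE 0.22, adjusted p 0.0135) and 0.62 (SE 0.15, adjusted p 0.00335) higher in late than in ch+. Of 6 electron carriers, Etfdh was 0.62 higher in ch+ than in ch- (SE 0.17, adjusted p 0.0245) and 0.57 lower in late than in ch+ (SE 0.17, adjusted p 0.0172). Against ctrl limma called 0 of these 6 in late, ch+ and ch-, with 0, 1 and 1 at unadjusted p under 0.05. Of 29 tested assembly factors outside the members, Cox15 for heme A synthesis fell in late (−0.60, SE 0.22, adjusted p 0.0671) and the complex I factor Foxred1 was 1.08 lower in late than in ch+ (SE 0.31, adjusted p 0.0165). The other comparisons of that list gave 0 calls in limma, with 3 (ch+), 2 (ch-) and 0 (ch+ against ch-) at unadjusted p under 0.05. None of 10 coenzyme Q genes passed in any comparison, with at most 2 at unadjusted p under 0.05 in limma. Medians in late, ch+ and ch- were 0.08, −0.25 and 0.01 for import and carriers, −0.03, −0.08 and −0.19 for electron carriers, −0.15, −0.08 and −0.16 for assembly factors, and −0.21, −0.22 and −0.09 for coenzyme Q genes. Late signs of all these lists depend on the scaling.

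Cell type markers changed along with the stage, and their part in the values above was not tested. Of 10 tested blood genes out of 12 listed, 10 rose in ch+, 9 rose in ch- and 3 fell in late. The filter takes the mean over all libraries, so genes low in ctrl and late passed only through the early groups. Such genes include Ptprc, Elane, Camp and Itgam among blood genes and Epb42 and Klf1 among red cell genes. Counts of early increases in the blood, red cell and muscle lists are therefore partly set by the filter. Summed linear levels of a list take every listed gene with values, tested or not, whereas calls cover the tested genes alone. The blood genes summed to 288, 499 and 657 in ctrl, 1722, 2056 and 3507 in ch-, 1281, 2397 and 3158 in ch+, with late at 131, 220 and 281, so every early library was above every other. Lyz2, with means of 7.93, 9.21, 8.96 and 6.78 over these groups, was among the most abundant, and Ptprc had 2.56, 4.21, 4.79 and 2.43. Cd52 (mean 1.46) and Coro1a (3.04) were not tested. All 9 tested red cell genes of 10 listed rose in ch+, 8 rose in ch- and 4 fell in late. Their sums were 341, 445 and 709 in ctrl, 5113, 7767 and 10274 in ch-, 4385, 8558 and 12961 in ch+, with late at 102, 107 and 138, led by Hbb-bs with 7.59, 11.71, 11.81 and 4.64; Ahsp was not in the table. Skeletal muscle genes (6 of 11 tested) rose in all 6 cases in ch+ and in 2 cases in ch-, and 1 fell in late, with sums of 73.7, 75.7 and 143 in ctrl, 116, 260 and 473 in ch-, 183, 472 and 733 in ch+, with late at 53.1, 56.2 and 60.8, led by Acta1. Mb, Atp2a1 and Mylpf passed the filter only through the early groups. Of the untested muscle genes, Tnni2 had lower means in both early groups than in ctrl, and Myh1, Myh2, Myh4 and Tnnc2 had higher ones. Blood and red cell genes thus rose in the same early groups as the mitochondrial members. Muscle genes rose in ch+, whereas in ch- most of them did not pass and their sums overlapped ctrl. Of the blood, red cell and muscle genes, 10, 9 and 6 were lower in late than in ch+. In ch+ against ch- none of these lists had a call in limma, with 0, 0 and 3 genes at unadjusted p under 0.05. In that comparison, where Ndufa4l2 was the only member called, 8 of 8 chondrocyte genes (median −2.95), 5 of 8 smooth muscle genes (median −1.70) and 1 of 3 adipocyte genes were lower in ch+, and 1 of 9 stromal genes was higher.

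Stromal markers of Nes low cells (9 of 9 tested) had sums of 46182, 53342 and 71011 in ctrl, 48498, 75267 and 92692 in ch-, 77393, 97317 and 116283 in ch+, with late at 111923, 120732 and 137042, led by Cxcl12 with means of 15.19, 15.61, 16.07 and 16.17 over these groups. In late 6 rose and 1 fell, in ch+ 5 rose, and in ch- limma called 0 with 5 at unadjusted p under 0.05. Nes itself had group means of 7.39, 7.32, 7.30 and 7.30. Chondrocyte genes fell (8 of 8 in late and in ch+; in ch- limma called 0, with 1 unadjusted), with sums of 70281, 84577 and 154514 in ctrl, 34634, 54629 and 85574 in ch-, 8136, 13701 and 26651 in ch+, with late at 2802, 7047 and 15223, led by Col2a1. Osteoblast genes fell in late (7 of 8), with mean levels of 13.95, 13.88, 13.54 and 11.72, led by Col1a1, and limma called 0 in ch+ and ch- with 0 unadjusted. Smooth muscle genes (8 of 8 tested) fell in 4 cases in late and 5 in ch+, and limma called 0 in ch- with 3 unadjusted; their mean levels were 8.81, 8.35, 7.03 and 7.88 in ctrl, ch-, ch+ and late. Endothelial genes (6 of 8 tested, led by Cdh5) had 0 calls in limma against ctrl, with 1, 0 and 0 unadjusted in late, ch+ and ch-, and mean levels of 5.14, 5.12, 5.33 and 4.86. Of 3 tested adipocyte genes out of 6, led by Adipoq, 1 fell in late, 1 rose and 1 fell in ch+, and limma called 0 in ch- with 1 unadjusted; Lep (−2.32), Cidec (0.10) and Plin1 (2.52) were too low to be tested. Late directions of the lists are those of the deposited scaling.

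**Figure D4:**
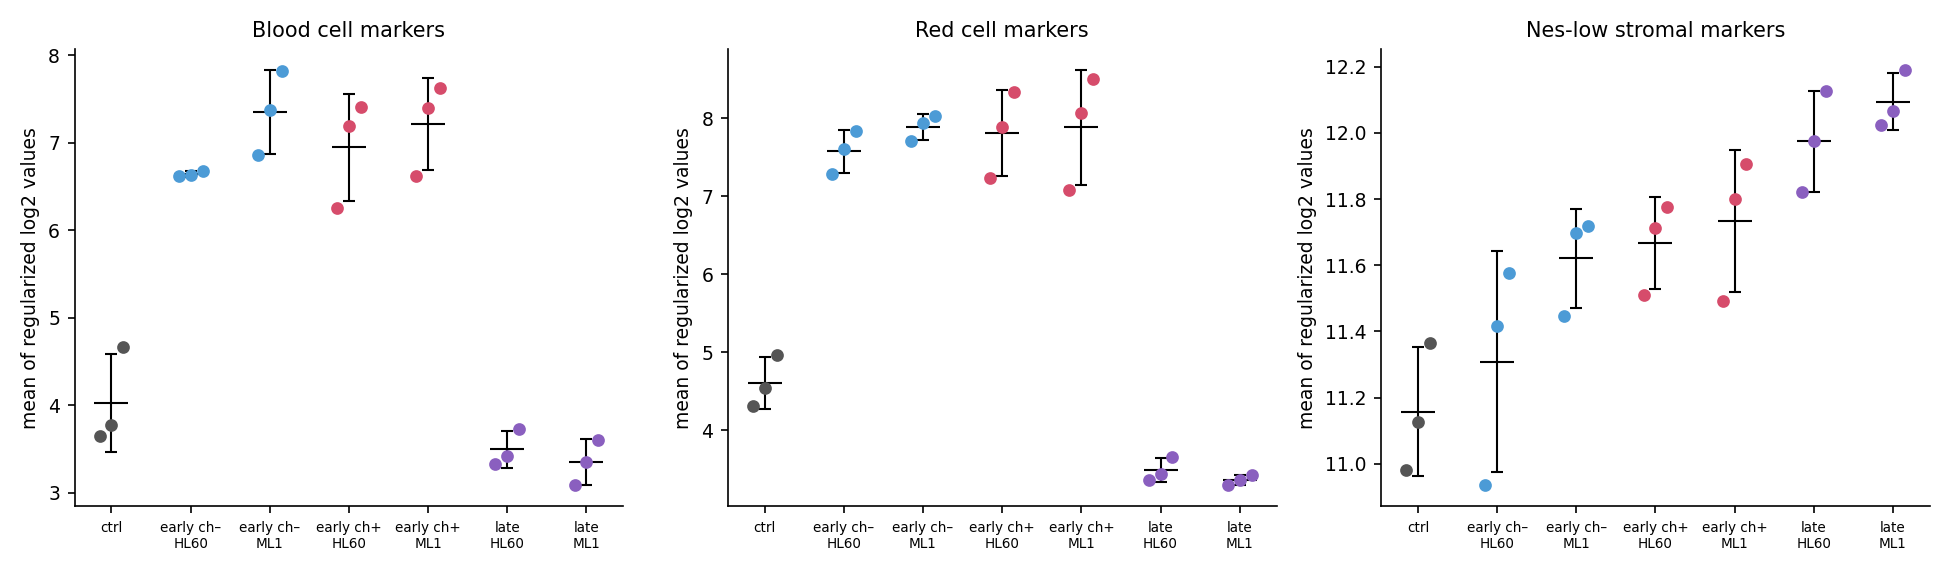
Mean level of blood, red cell and Nes low stromal markers in each library, with group mean and SD (n = 3 libraries per group). Values are on the deposited scaling, and a rescaling to a common total moves all genes of the late libraries up together.

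Several mitochondrial members cannot be measured apart from other genes. A stretch of chromosome 1 at 24611535 to 24616197 (GRCm38) holds near-identical copies of all or part of 7 of the 13 members, counted separately from them. Gm29216 aligns to 31.3% of mt-Co1 and Gm28439 to 63.6% of mt-Nd4, whereas the other copies there cover nearly all of their genes. Gm10925, a full copy of mt-Atp6 with 100% identity, had a mean of 12.24, above the 11.61 of mt-Atp6 itself. Gm28661 (copy of mt-Co2, 11.40) and Gm28437 (copy of mt-Co3, 11.10) were almost as high as their genes, whereas Gm29216 (mt-Co1, 6.90), Gm28439 (mt-Nd4, 6.37) and Gm10222 (mt-Nd4l, 6.73) were far lower. The copies did not move alike. Gm10925 rose by 0.93 in ch+ and 1.16 in ch- (adjusted p 0.000678 and 0.000101), and Gm28661 was at 0.30 and 0.35 without a call and fell by 0.88 in late (adjusted p 0.0061). Gm28439 fell by 2.65 in ch+ (adjusted p 0.0108) and by 4.51 in late (adjusted p 4.4e-06), and was at −0.63 in ch-. When mt-Atp6 was summed with its copy, a choice made after seeing the data, ctrl was 12.45, 12.49 and 12.64, ch- 13.33, 13.51 and 13.61, ch+ 13.19, 13.28 and 13.49, and late 12.08, 12.31 and 12.71. The summed early libraries no longer overlapped ctrl. For mt-Nd3 the sum was 5.08, 5.08 and 5.48 in ctrl, 5.36, 5.72 and 5.78 in ch-, 5.04, 5.35 and 5.99 in ch+, with late at 4.61, 4.99 and 5.13, overlapping ctrl in each group. Among nuclear members, Ndufb4 and its copy Ndufb4c are identical over 390 bases, and Ndufs5 and BC002163 share 99.4% over 319 bases, so values of these genes are uncertain.

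mt-Nd3 and its copy Gm28438 differ at 1 of 345 compared bases, the substitution T3C counted from the 5′ end of mt-Nd3, so reads from most of the gene fit both. The first 40 bases of each gene are shown in reading direction, with the differing base in capitals. They start at chrM:9459 on the plus strand for mt-Nd3 and lie on chromosome 1 for the copy (mm10, GENCODE).
mt-Nd3: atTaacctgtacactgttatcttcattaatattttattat
Gm28438: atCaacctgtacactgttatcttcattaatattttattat

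mt-Atp8 and mt-Atp6 are read from the same strand and share 43 bases at chrM:7927-7969, and mt-Nd4l and mt-Nd4 share 7 bases at chrM:10167-10173. Reads within such an overlap cannot be assigned to 1 gene. The shared stretch of mt-Atp8 and mt-Atp6 is shown on the plus strand (GRCm38.p6, GENCODE). The whole run belongs to both genes, and its first 3 bases, the start of mt-Atp6, are in capitals.
mt-Atp8 and mt-Atp6: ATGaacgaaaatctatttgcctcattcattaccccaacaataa

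Promoters of nuclear members (300 bases each) were searched on both strands for CCGGAAG, letters written for GABPA and other ETS factors. It was found in 17 of 70 matched nuclear members (24.3%) and in 9.12% of 27025 promoters of the same length. A motif of 10 letters for NRF1 was found in 18 of the 70 (25.7%) and in 4.78% of all promoters. A match is a description of the sequence and not of binding. Of the 11 nuclear members called with both lines pooled, 8 had a promoter in the table, and Ndufa4l2, Ndufb4c and Sdhc did not. Ndufs8 (read as CTTCCGG on the strand shown) and Atp5e had 1 match each to CCGGAAG. Uqcr10, Ndufb2, Ndufc1, Ndufb11, Cox7b and Cox7c had none, and the NRF1 motif was in none of the 8. Ndufs8 and Uqcr10 are shown as examples with and without a match. Coordinates are GRCm38.p6 (mm10), minus strand, chr19:3912725-3913024 for Ndufs8 and chr11:4704295-4704594 for Uqcr10, from RefSeq, and capitals mark the match in Ndufs8.
Ndufs8: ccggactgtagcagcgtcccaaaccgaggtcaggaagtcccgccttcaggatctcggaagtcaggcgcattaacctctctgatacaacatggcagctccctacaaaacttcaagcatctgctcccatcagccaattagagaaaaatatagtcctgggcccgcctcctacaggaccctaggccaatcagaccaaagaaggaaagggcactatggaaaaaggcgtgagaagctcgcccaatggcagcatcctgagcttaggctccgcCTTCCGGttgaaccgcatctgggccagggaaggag
Uqcr10: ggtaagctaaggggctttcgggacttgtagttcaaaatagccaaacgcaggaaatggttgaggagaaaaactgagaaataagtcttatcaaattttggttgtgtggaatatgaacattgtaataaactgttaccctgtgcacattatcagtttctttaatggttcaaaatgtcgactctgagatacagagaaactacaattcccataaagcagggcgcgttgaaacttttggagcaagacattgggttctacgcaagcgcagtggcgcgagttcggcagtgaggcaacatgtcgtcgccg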

How the data were processed

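The values are the regularized log2 values deposited by the authors, who aligned with STAR 2.5.1b, counted with RSEM 1.2.29 and normalized with DESeq2 1.10.1 according to the submitters' processing notes. The notes speak of log10, but values from −2.33 to 22.44 fit log2, as counts could not reach the upper end on a log10 scale. Members and gene lists were chosen with earlier results of these data known. All 12980 genes with a mean of at least the log2 of 10 were tested in limma 3.58.1 (R 4.3.3; lmFit, contrasts, eBayes with trend), two-sided, with Benjamini-Hochberg adjustment over all tested genes and an adjusted p under 0.1. A first fit had 4 groups with both lines pooled, a second had 7 groups with lines apart. The method was tested on simulated data, but the outcome is not reported here and no result rests on it. The depth of each library cannot be read from the deposited values, so its precision was judged from the replicates. Means over members carry no p. Named genes are all mitochondrial members, Sdha to Sdhd, isoforms with their partners, and the 2 largest called changes per class and list; other genes were named after their values were seen. Cell type markers and pathway lists were given by symbol. Copies were found with BLAST 2.17.0, and tables and plots were made with Python 3.11.15. Alternatives covered the filter, scaling, variance model, groups in the fit, threshold and each library left out. Summing mitochondrial genes with their copies was chosen after seeing the data.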

Additional observations from a re-analysis of the deposited data

Results flagged for a closer look

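Among 37 items examined in 111 groups of replicates, 5 values stood far from the other libraries of their group, where chance gives about 1 in 20 groups. Their number is thus about what chance alone gives. mt-Atp6 was 11.20 in early ch+ ML1 541, and 11.86 to 12.25 in the other ch+ libraries. Ndufaf8 was 3.55 in early ch- HL60 528, and 4.19 to 4.57 in the others. Ndufb4c was 6.43 in early ch+ ML1 538, and 6.88 to 7.05 in the others. The mean over the nuclear members was 6.69 in late ML1 582 (others 6.83 to 6.90), and the gap between mitochondrial and nuclear means was 4.54 in the same library (others 3.70 to 3.99).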

How the results depend on the processing

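Counts below are members called in limma, with the value under the deposited scaling and all 21 libraries given in the text above unless stated. Rescaling to the mean library total put the all-gene median at 0.71 in late, 0.09 in ch+ and −0.06 in ch- against ctrl, 0.13 in ch+ against ch- and 0.63 in late against ch+. It put the share of called genes that were higher at 93.8% in late (47.3% before), 66.7% in ch+ (55.4%), 41.9% in ch- (59.0%), 78.6% in ch+ against ch- (57.2%) and 93.5% in late against ch+ (44.6%). Under it 44 nuclear and 10 mitochondrial members were called in late, all higher, and 51 nuclear members were higher in late than in ch+. Calls were 26 in late HL60 and 54 in late ML1, with 1 nuclear call in ch+. Mitochondrial medians were 0.40 in late, 0.0788 in ch+ against ch- and −0.48 in late against ch+, and nuclear medians 0.55 in late, 0.0341 in ch+, −0.0936 in ch-, 0.13 in ch+ against ch- and 0.49 in late against ch+. Between late and ch+ the signs of Atp5e (0.0747), Cox7b (0.14), Cox7c (0.20), Ndufb11 (0.15), Ndufs8 (0.0101) and mt-Atp8 (0.027) turned. Rescaling to totals without ribosomal RNA and the mitochondrial chromosome put the all-gene medians at 0.58, 0.16, 0.15, −0.01 and 0.43 in the same order, with 90.9%, 78.1%, 82.8%, 60.0% and 88.1% of called genes higher. It gave 31 nuclear and 3 mitochondrial members higher in late, 18 nuclear members higher in late than in ch+, 1 nuclear call in ch+, 13 calls in late HL60 and 40 in late ML1. Mitochondrial medians were then 0.26 in late and −0.69 in late against ch+, and nuclear medians 0.41 in late, 0.11 in ch+, 0.13 in ch- and 0.28 in late against ch+. In both rescalings the mitochondrial increases stayed, with 11 and 12 calls in ch+ and 10 and 12 in ch-, and so did 10 and 11 decreases from ch+ to late. Quantile normalization gave 3 mitochondrial calls in late, 1 in ch+ against ch-, and 4 nuclear calls in late against ch+. Without the filter, late HL60 had 1 call, late ML1 6 and their difference 1, and the share of higher genes in ch+ was 45.1%. A mean of at least 5 gave 5 nuclear calls and 1 mitochondrial call in late. Fitting only the compared groups gave 5 nuclear calls and 1 mitochondrial call in late, 1 nuclear call in ch+ and 3 members different between late HL60 and ML1. Array weights gave 2 members different between late HL60 and ML1, and no trend gave 1, with 5 calls in ch- ML1. Averaging lines in the fit of 7 groups gave 5 nuclear and 3 mitochondrial calls in late. HL60 with ctrl alone gave 2 mitochondrial calls in late, 0 nuclear calls in ch+ against ch- and 3 in late against ch+. ML1 with ctrl alone gave 5 nuclear and 2 mitochondrial calls in late, 0 nuclear calls and 1 mitochondrial call in ch+ against ch-, and 0 nuclear calls in late against ch+. At adjusted p under 0.05 calls were 1 in late HL60, 4 in late ML1, and for nuclear members 1 in ch+ and 2 in late against ch+. With a log2 change of 1 or more in size required, mitochondrial calls were 1 in ch+ and 4 in ch-, nuclear calls 1 in ch+, 0 in late and 0 in late against ch+, and by line 3 in ch+ ML1, 2 in ch- ML1, 1 in late HL60 and 1 in late ML1. Summing mitochondrial genes with their copies, chosen after seeing the data, gave 1 mitochondrial call in late. Leaving out each library in turn gave 2 to 6 nuclear and 0 to 4 mitochondrial calls in late, with medians of −0.20 to −0.10 and −0.36 to −0.20. It gave 0 to 3 nuclear and 9 to 12 mitochondrial calls in ch+ (medians −0.07 to −0.01 and 0.79 to 0.93), and 0 nuclear and 9 to 11 mitochondrial calls in ch- (−0.04 to 0.04 and 0.86 to 1.03). In ch+ against ch- it gave 1 nuclear and 0 to 1 mitochondrial calls (−0.07 to 0.02 and −0.13 to −0.01), and in late against ch+ 2 to 9 nuclear and 12 mitochondrial calls (−0.14 to −0.06 and −1.17 to −1.01). By line it gave 0 to 4 calls in late HL60, 4 to 11 in late ML1, 10 to 12 in ch+ HL60, 9 to 12 in ch+ ML1, 8 to 10 in ch- HL60, 8 to 10 in ch- ML1 and 0 for each difference between lines. The gap difference was −0.23 to −0.04 in late, 0.71 to 0.87 in ch+, 0.72 to 0.88 in ch-, −0.09 to 0.03 in ch+ against ch- and −1.02 to −0.84 in late against ch+. Nuclear calls in late were 5 without ctrl 374, 6 without late HL60 398, 5 without early ch+ HL60 525 and 5 without early ch- ML1 543. Mitochondrial calls in late were 4 without late ML1 582 and 1 without late HL60 397, early ch+ HL60 524 or early ch+ ML1 541. Nuclear calls in ch+ were 0 without ctrl 373, 0 without ctrl 375 and 1 without early ch+ HL60 525. Without early ch- HL60 527, ch+ against ch- had 1 mitochondrial call. Nuclear calls in late against ch+ were 3 without late ML1 582, 2 without late ML1 583, 4 without late HL60 398, 3 without early ch+ HL60 523 and 4 without early ch+ ML1 539. Late HL60 had 0 calls without ctrl 375, and 1 without ctrl 374, late HL60 397, late HL60 398 or late HL60 399; late ML1 had 4 without ctrl 374. Of single genes, the call of Ndufb2 in late was lost without ctrl 375 (−0.73, adjusted p 0.194) and in ch+ without ctrl 373 (adjusted p 0.116), ctrl 375 (−0.80, adjusted p 0.268), early ch+ HL60 523 (adjusted p 0.108) or early ch+ HL60 525 (adjusted p 0.108). Ndufc1 in late was lost without ctrl 374 (−0.83, adjusted p 0.103), and mt-Nd4l in ch+ without ctrl 373 (0.55, adjusted p 0.265). mt-Nd4l in ch- was lost without ctrl 373 (0.60, adjusted p 0.32), ctrl 374 (0.93, adjusted p 0.118), early ch- HL60 529 (adjusted p 0.103) or early ch- ML1 544 (adjusted p 0.106). Sdhc in ch+ was lost without ctrl 373 (adjusted p 0.196), ctrl 375 (−0.62, adjusted p 0.299), early ch+ HL60 525 (adjusted p 0.106), early ch+ ML1 538 (adjusted p 0.106) or early ch+ ML1 541 (adjusted p 0.13). Ndufa4l2 in ch+ was lost without ctrl 373 (−1.60, adjusted p 0.111) or ctrl 375 (−1.54, adjusted p 0.124). Uqcr10 in late against ch+ was lost without early ch+ HL60 524 (−0.52, adjusted p 0.105). In that comparison calls were also lost in 5 of 21 omissions for Ndufs8, 8 for Ndufb11, 7 for Cox7b, 6 for Cox7c and 12 for Atp5e. The cause was not tested. No paired analysis was made, because library numbers do not repeat across groups and the labels do not pair ch+ with ch-. Both kinds of cells come from the same marrows, but pairs inferred from the order of the numbers would be a guess.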
